A study of Mus musculus with 12 samples.

Results

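Mouse embryonic stem (ES) cells deficient for both Ring1B and Eed were compared with wild type ES cells on Affymetrix mouse expression arrays. The arrays were chosen by their titles, 3 of double deficient and 3 of wild type cells, which are 6 of the 12 arrays in the series. The other 6 arrays hold 3 of Ring1B deficient and 3 of Eed deficient cells and were used for the shared estimate of the spread and for direct tests against the double deficient cells. The labels say that the Ring1B and the Eed mutant lines each came from gene targeting, and that the double mutant line was derived from Eed deficient cells by targeting Ring1B in them. Eed deficiency is therefore shared by the double deficient and the Eed deficient cells, and the wild type cells carry neither mutation. No further line of any genotype, no strain and no passage number is described, so the mutations cannot be told apart from other differences between these lines. The replicates are titled as biological. Nothing says that they came from separate clones, so p-values measure the spread between these samples, which may be technical.

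Ring1B, encoded by Rnf2, is the main ubiquitin ligase of Polycomb repressive complex 1 (PRC1), which marks histone H2A. Eed is a core subunit of Polycomb repressive complex 2 (PRC2), in which Ezh2 methylates histone H3 at lysine 27, and Eed itself binds that mark. In ES cells both complexes sit on the CG-rich promoters of developmental regulators and hold them at low levels. The comparison asks which transcripts differ between cells deficient for both Ring1B and Eed and wild type cells. The arrays do not measure the histone marks or how much of either complex remains.

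Each value is a MAS5 signal in units scaled to a trimmed mean of 100 on every array. Array medians were 19.07 to 21.82 in wild type and 23.31 to 28.01 in double deficient cells. The log2 signals of replicates correlated at 0.963 to 0.977 in wild type and 0.974 to 0.984 in double deficient cells, across genes, which are not independent replicates. Of 18193 genes with a probe set of their own, 13985 passed a filter on low values and were tested, and the other 4208 were not. The 7 ES cell markers (Pou5f1, Sox2, Nanog, Zfp42, Esrrb, Tdgf1 and Utf1) summed to 14770 to 16260 in wild type and 9250 to 11710 in double deficient arrays. The cells thus still carried ES cell transcripts, at a lower summed level, and these bulk values cannot tell fewer cells of a type from less RNA per cell.

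Signals of the targeted genes bear on the labels. The brighter Eed probe set gave 1547, 1248 and 1489 in the 3 wild type arrays and 87.1, 47.5 and 79.1 in the double deficient arrays. These groups lay far apart (log2 change -4.27, SE 0.24, adjusted p = 7.6e-08). A dimmer Eed probe set read 9.85 to 14.2 in wild type and 13.3 to 24.2 in double deficient cells, near the background. Rnf2 was lower but still present, with 777, 994 and 781 against 362, 399 and 387 on its brightest probe set (log2 change -1.13, SE 0.16, adjusted p = 0.00019). The next Rnf2 probe set gave 553, 701 and 642 against 256, 300.0 and 271. A dim one gave 26, 25.6 and 38 against 36.1, 36.5 and 42.8, the other way round. The sources used here do not give the deleted parts, and a probe set outside a deletion reads what is left of the transcript, not the protein.

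Many genes differed between the genotypes and, in the arrays as deposited, rises were both more frequent and larger than falls. Of 13985 genes, 4311 (30.8%) were called at an adjusted p under 0.05, 2723 (19.5%) higher and 1588 (11.4%) lower. Changes of at least 2-fold were called for 1407 genes (10.1%) upward and 304 (2.17%) downward, of at least 4-fold for 305 and 33, and of at least 8-fold for 67 and 4. The median log2 change was 1.03 among genes called higher and -0.67 among genes called lower. Over all tested genes it was 0.105, and list medians are to be read against that shift. The shift differed with signal level, as given below, and the lists were not matched for level.

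The split depends on how arrays are brought to a common level. As deposited, 63.2% of calls were higher. Quantile normalization gave 2204 higher and 1811 lower (54.9% higher), and centring every array on its median gave 1691 and 3141 (35% higher), with a median over all genes of -0.145. Without double deficient replicate 3 the calls fell to 2008 higher and 1013 lower.

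**Figure D1:**
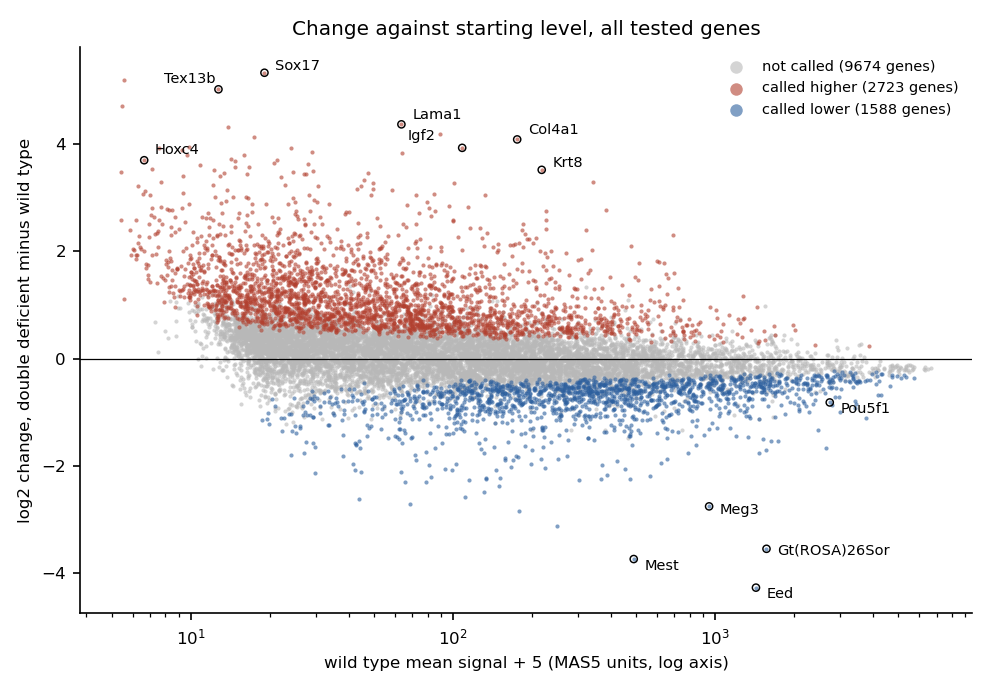
Log2 change of each of the 13985 tested genes (vertical axis) against its mean wild type signal plus 5 in MAS5 units (horizontal, log axis), with genes called higher in red, called lower in blue and not called in grey. The largest rises start from low wild type signals, while the genes called lower lie mostly to the right. The wild type signal enters both axes, so part of this pattern is built in.

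Starting levels differed between the directions. The median wild type signal was 39.1 for genes called higher and 332 for genes called lower, against 83.0 for all tested genes. The wild type signal also enters the change, so part of this gap is built in. In double deficient cells the medians were 96.0 for genes called higher, 196 for genes called lower and 95.0 for all tested genes. Genes were also ranked by mean level over the 12 arrays and cut into 4 equal classes. From the dimmest to the brightest class, 21.2%, 26.1%, 18.7% and 11.8% were called higher, and 2.92%, 6.78%, 12.6% and 23.1% lower. In the same order, the median log2 changes were 0.34, 0.23, 0.02 and -0.14. For 55 of the 2723 genes called higher (2.02%), all wild type arrays lay at or under their 40th percentile and all double deficient arrays above their 60th. The reverse held for 6 of the 1588 genes called lower (0.378%). By this definition the 55 genes passed the filter on low values through mutant arrays alone. The counts describe the calls and are no further support for them. Of the 55, 34 belong to none of the gene lists used here. The other 21 are Sox7, Foxa2, Hoxa9, Hoxa10, Hoxc4, Hoxc8, Hoxc9, Hoxd10, Tbx15, Tbx18, Tbx20, Lhx2 and Zic1, which encode transcription factors, the ligand Bmp2, the carriers Ttr and S100g, the testis gene Tex13b, the fibroblast markers Ccl2 and Fbln5, the macrophage marker Fcgr3 and the MHC class II gene H2-Aa.

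Regulators of endoderm were mostly higher. Sox17, which acts in primitive and definitive endoderm, read 10.2, 16.7 and 15.4 in wild type and 724, 857 and 692 in double deficient arrays. No wild type array came near any double deficient array (log2 change 5.33, SE 0.18, adjusted p = 8.9e-10). Gata6, which directs primitive endoderm, read 17.8, 24.6 and 25.3 against 271, 308 and 299 (log2 change 3.44, SE 0.18). Its relative Gata4 read 15.3, 24.5 and 20.3 against 142, 157 and 167 (log2 change 2.69, SE 0.18). In both genes the arrays of the 2 genotypes were clearly separated. Sox7, a relative of Sox17 in extraembryonic endoderm, rose by 3.51 on the log2 scale, Pdgfra, a growth factor receptor of primitive endoderm, by 3.45, and Foxa2, a forkhead factor of endoderm, by 2.93. In all, 13 of 16 tested endoderm regulators rose and 1 fell, with a median log2 change of 1.87. With no filter on low values 13 of 17 rose (median 1.36). The member that fell was Prdm1, a repressor of gene expression in germ cell precursors and visceral endoderm (-1.35, adjusted p = 0.0014). Hnf4a and Hhex were not called, at 0.53 and 0.09. Summed over the 16 genes, the signal was 379 to 426 in wild type and 2085 to 2243 in double deficient arrays.

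The basement membrane that primitive endoderm lays down has laminin and collagen IV as its main proteins. Lama1, the laminin alpha 1 chain, read 58.8, 48.5 and 68.6 in wild type and 1241, 1426 and 1236 in double deficient arrays (log2 change 4.37, SE 0.16, adjusted p = 2.0e-09). Col4a1 read 146, 211 and 155 against 2495, 3374 and 3044 (log2 change 4.09, SE 0.17). Its partner chain Col4a2 read 75.2, 98.2 and 80.2 against 1421, 2004 and 1497 (log2 change 4.19, SE 0.21). These 3 genes were separated between the genotypes on every array, which was a condition for naming them among the largest rises. The partner laminin chains Lamb1 and Lamc1 rose by 2.41 and 2.01, Serpinh1, the collagen chaperone, by 2.77, and Sparc, a matrix glycoprotein, by 2.31. Of 24 tested basement membrane genes, 14 rose and 1 fell (median 1.36). The member that fell was Col18a1, a collagen of mature basement membranes (-1.24, adjusted p = 0.0095), while Lama5 and Hspg2 were not called (0.12 and 0.30). Fibroblast markers, which overlap in function with matrix genes, moved the same way: 22 of 26 rose, and their sum went from 4160 to 4359 in wild type to 11160 to 12820 in double deficient arrays. Their part in the matrix result was not tested.

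Col4a1 and Col4a2 lie head to head, and both rose, so the 250 bases before each start are shown (RefSeq, assembly GRCm38.p6), at chr8:11312827-11313076 on the minus strand with 31 CG dinucleotides and at chr8:11312555-11312804 on the plus strand with 26. By these positions each window lies downstream of the other gene's start, so neither is an upstream stretch free of both genes. Capitals mark CG, the dinucleotide of CpG islands, which reads the same on both strands.
Col4a1: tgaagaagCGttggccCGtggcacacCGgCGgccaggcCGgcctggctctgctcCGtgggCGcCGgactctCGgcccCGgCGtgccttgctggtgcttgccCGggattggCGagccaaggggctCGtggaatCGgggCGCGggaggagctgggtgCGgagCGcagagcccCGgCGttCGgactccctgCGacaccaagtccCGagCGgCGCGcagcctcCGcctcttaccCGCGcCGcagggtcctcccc
Col4a2: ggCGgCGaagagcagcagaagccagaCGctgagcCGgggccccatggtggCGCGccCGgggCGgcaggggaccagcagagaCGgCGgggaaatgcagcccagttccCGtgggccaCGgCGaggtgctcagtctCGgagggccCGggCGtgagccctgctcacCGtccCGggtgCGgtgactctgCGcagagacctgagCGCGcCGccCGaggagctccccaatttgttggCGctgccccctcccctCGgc
Among 27025 promoters in the RefSeq table, 91.7% hold at least 1 CG in this window and 38.2% hold 10 or more. The median was 6 in that table and 15 in the 11243 tested genes with an entry, of which 69.9% held 10 or more. Genes called lower (median 16, 76.4% with 10 or more) and genes not called (median 15, 68.7%) had an entry in 82.3% and 80.8% of cases. Genes called higher (entry for 78.0%) and the Hox genes (57.7%) were under 80% coverage, so no CG comparison was made for them.

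Uptake receptors and carrier proteins of visceral endoderm, the layer that feeds the early embryo, rose as well. Cubn, the cubilin receptor, read 9.28, 33.7 and 14.6 in wild type and 345, 296 and 362 in double deficient arrays (log2 change 3.93, SE 0.37, adjusted p = 5.9e-06). The wild type arrays varied among themselves but all stayed far below. Amn, which carries cubilin to the surface, rose by 1.68, the megalin gene Lrp2 by 1.49 and their adaptor Dab2 by 3.33. Ttr, a carrier of thyroid hormone and retinol binding protein, read 0.563, 0.414 and 0.637 against 309, 120.5 and 211, from under the background to a level that varied between the double deficient arrays (log2 change 5.21, SE 0.81). S100g, a calcium binding protein of absorptive epithelia, read 0.508, 0.441 and 0.453 against 166, 102 and 156 (log2 change 4.72, SE 0.34). Afp, a fetal serum protein, rose by 2.63. In all, 18 of 25 rose and 0 fell (median 2.11), and with no filter on low values 17 of 29 rose (median 1.59). Apoe, an apolipoprotein, had every double deficient array below every wild type array but was not called (-0.74, adjusted p = 0.12). The other apolipoprotein genes Apob, Apoa1, Apoa2, Apom and Apoc2 did not pass (1.21, 0.79, 0.38, 0.27 and 0.22). The Cubn window, at chr2:13491877-13492126 on the minus strand, is shown as a contrast to the collagen pair, since it holds 2 CG.
Cubn: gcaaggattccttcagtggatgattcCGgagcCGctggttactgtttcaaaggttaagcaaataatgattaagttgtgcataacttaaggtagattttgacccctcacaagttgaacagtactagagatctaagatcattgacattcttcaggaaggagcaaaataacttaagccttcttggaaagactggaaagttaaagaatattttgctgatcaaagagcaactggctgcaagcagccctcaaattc

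Hox genes, the clustered regulators of position along the body axis, rose in all 4 clusters. Of the 26 tested, 23 rose, 0 fell and 3 were not called. By cluster, 4 of 6 Hoxa, 6 of 6 Hoxb, 7 of 7 Hoxc and 6 of 7 Hoxd genes were higher, with median log2 changes of 1.32, 1.26, 2.03 and 2.34. Mutant arrays alone can carry a gene past the filter on low values, which raises these shares. With no filter, 5 of 9 Hoxa, 5 of 9 Hoxb, 7 of 7 Hoxc and 6 of 8 Hoxd genes were higher. Their medians were then 0.92, 1.23, 2.03 and 2.18. Hoxc4 read 1.24, 0.988 and 2.69 in wild type, at the background, and 69.2, 89 and 85.6 in double deficient arrays (log2 change 3.70, SE 0.17, adjusted p = 1.1e-08). Hoxa9, a posterior gene, read 1.49, 3.52 and 9.07 against 140.1, 122 and 107 (log2 change 3.79, SE 0.24). Hoxd13, the last gene of its cluster, which acts in digits and genitalia, read 18.4, 18.5 and 23 against 177, 181 and 189.7 (log2 change 2.91, SE 0.15). In all 3 genes every double deficient array lay above every wild type array.

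**Figure D2:**
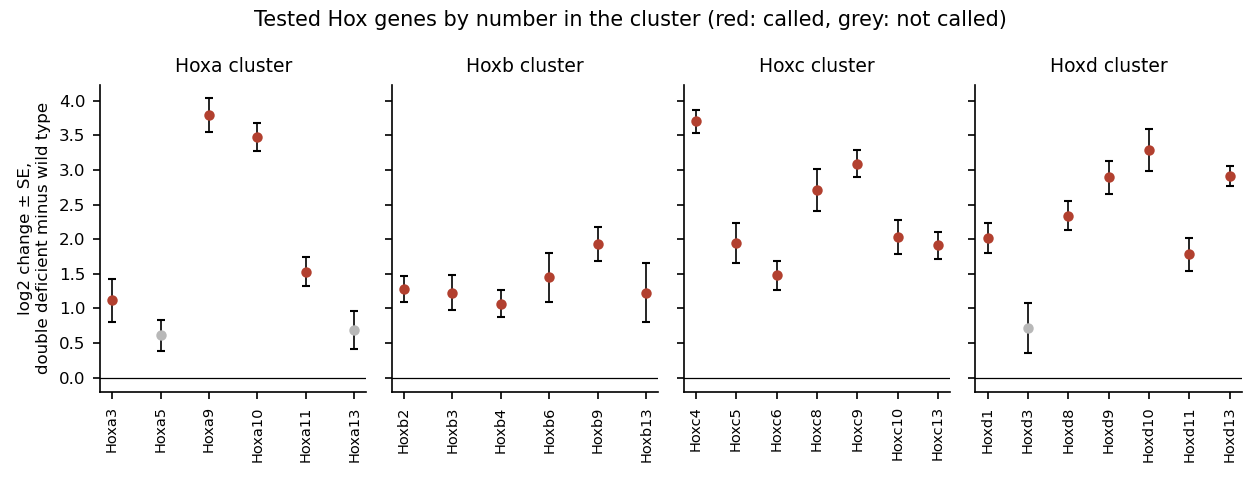
Log2 change, double deficient minus wild type, with its SE from the limma fit (vertical axis) for the 26 tested Hox genes, in panels by cluster and in the order of their numbers; red points were called and grey points were not. The 23 called genes lie above 1, and Hoxa5, Hoxa13 and Hoxd3 were not called.

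Within a cluster the sizes differed. In the Hoxa cluster Hoxa9 and Hoxa10 changed by 3.79 and 3.47, Hoxa11 by 1.53 and Hoxa3 by 1.12. The call on Hoxa3 was lost without wild type replicate 1 (and without double deficient replicate 3). The Hoxb genes, from 1.07 (Hoxb4) to 1.93 (Hoxb9), all stayed dim, with no double deficient array above 50.6 for Hoxb9, the largest riser. Under a stricter filter on low values, at the 60th percentile, 3 Hoxb genes were tested and all 3 rose. That filter can also be passed by mutant arrays alone. The window before Hoxd13, at chr2:74667975-74668224 on the plus strand, is shown as an example from a rising Hox gene and holds 31 CG.
Hoxd13: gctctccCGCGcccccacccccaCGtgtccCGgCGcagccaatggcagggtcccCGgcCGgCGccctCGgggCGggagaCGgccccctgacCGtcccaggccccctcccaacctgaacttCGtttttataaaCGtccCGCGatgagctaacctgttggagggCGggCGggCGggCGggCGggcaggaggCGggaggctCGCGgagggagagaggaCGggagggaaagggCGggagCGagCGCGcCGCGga
On the chromosome, Hoxc13, Hoxc10, Hoxc9, Hoxc8, Hoxc6, Hoxc5 and Hoxc4 formed an unbroken run of 7 tested genes called higher, and Hoxd13, Hoxd11, Hoxd10, Hoxd9, Hoxd8 and Hoxd3os1 a run of 6. Such runs of at least 4 neighbouring tested genes held 196 genes called higher (45 runs) and 50 called lower (12 runs), among 13964 genes placed in RefSeq order. Outside the Hox clusters they included Efna1, Efna3 and Efna4 (ephrin ligands), Ccl2, Ccl7 and Ccl8 (chemokines), and S100a16, S100a4, S100a5 and S100a6 (calcium binding proteins). These runs were chosen after their values were seen.

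Other developmental transcription factors followed. Of 65 tested homeobox genes outside the Hox clusters, 38 rose and 1 fell (median 1.09). With no filter 43 of 90 rose (median 0.85), and under the stricter filter 20 of the 28 that remained in the test rose. Mutant arrays alone can pass either filter, so the count with no filter is the less selected one. Msx2, a homeobox gene of limb and skull, read 19.13, 6.65 and 5.16 against 78.4, 93.7 and 92.2 (log2 change 2.71, SE 0.29). Lhx2, of forebrain and eye, rose by 2.45, Lhx1, of the embryonic organizer and kidney, by 2.29, and Pitx1, of the hindlimb, by 2.28. Among 11 T-box genes 6 rose and 1 fell (median 1.36), and with no filter 6 of 15 rose (median 0.59). Tbx20, a heart regulator, read 6.22, 8.67 and 2.73 in wild type and 118, 133 and 122 in double deficient arrays (log2 change 3.61, SE 0.23, adjusted p = 1.9e-07). Tbx15, of skeleton and muscle, and Tbx1, of the pharynx, rose by 3.41 and 2.37. The member that fell was Mga, a repressor that pairs a T-box with a Max-binding domain (-0.48). Of 28 forkhead genes 9 rose and 1 fell, with a median of 0.29 that drops to 0.04 under median centring. Foxd1, Foxq1 and Foxd2 rose by 2.78, 2.75 and 2.55, and Foxp1 fell, from 887, 384 and 413 to 121, 78.9 and 139 (log2 change -2.19, adjusted p = 0.00044).

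Of 27 genes of primitive streak and mesoderm, 18 rose and 0 fell (median 1.17). With no filter 18 of 33 rose (median 0.95), and under the stricter filter, which mutant arrays alone can pass, 9 of 11 rose. Bmp2, a ligand of early mesoderm, read 7.12, 3.02 and 4.35 against 64.6, 60.4 and 74.5 (log2 change 2.88, SE 0.21), leaving the background in every double deficient array. Hand2, of heart and limb, rose by 2.52 and Twist1, of head mesenchyme, by 1.63. Hand1 changed by 1.14 (adjusted p = 0.020), a call lost when any of wild type replicates 1 and 3 and double deficient replicates 2 and 3 was left out. The presomitic genes Msgn1 and Tbx6 were not called, at -0.20 and 0.15.

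**Figure D3:**
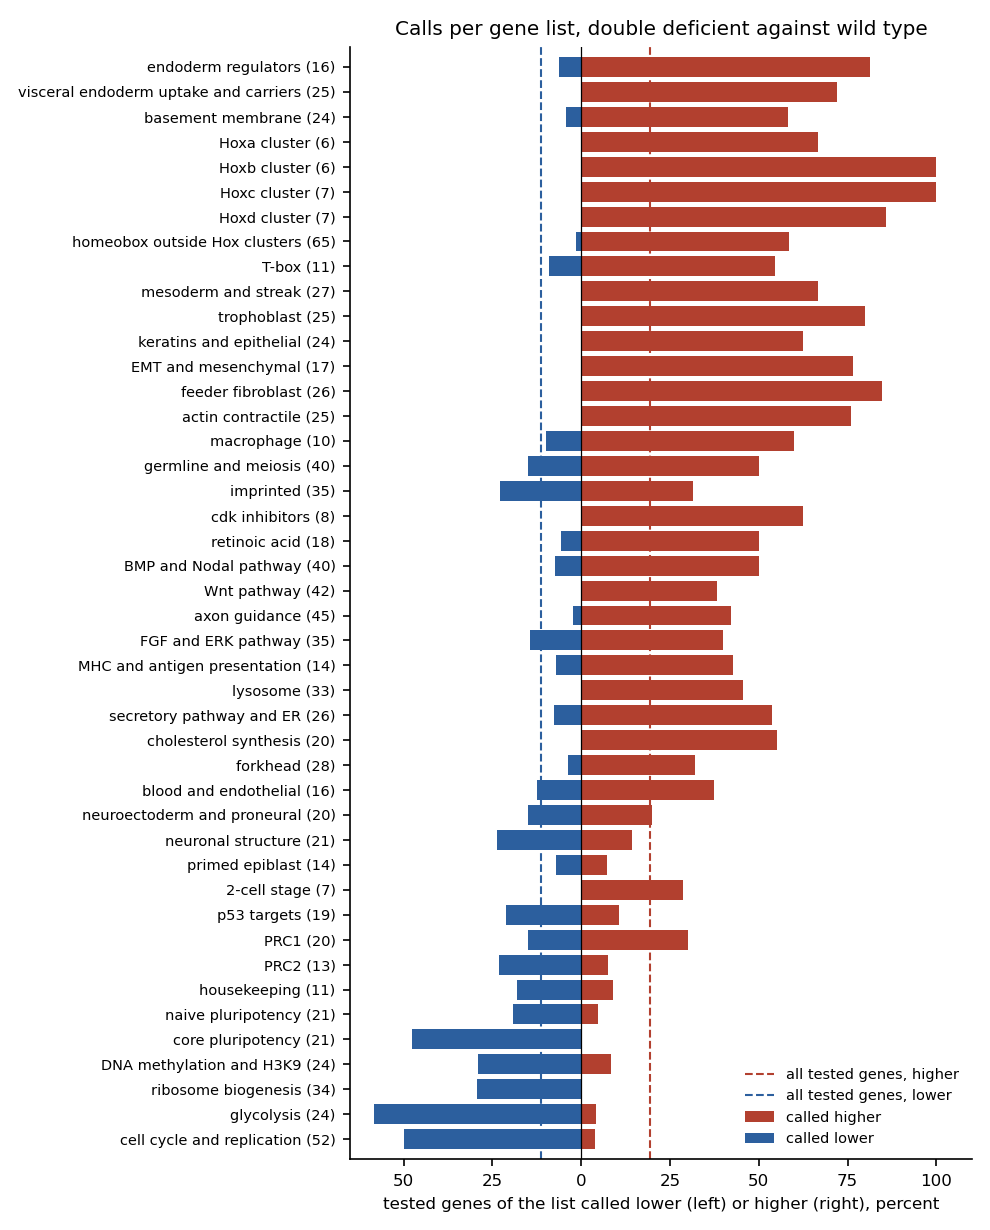
Percentage of the tested genes of each list that were called higher (red, right) or lower (blue, left) in double deficient against wild type cells, with the number tested in parentheses and dashed lines at 19.5% and 11.4% for all tested genes. Endoderm, Hox, trophoblast, fibroblast and actin lists extend far right of the dashed line, and cell cycle, glycolysis and core pluripotency lists far left.

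Neural genes were called in both directions, the regulators among them in shares close to those of all tested genes (19.5% higher and 11.4% lower). Of 20 neuroectoderm and proneural regulators, 4 rose and 3 fell (median 0.43), and 6 fell without wild type replicate 3 and under median centring. Zic1, a zinc finger gene of the dorsal neural tube, read 10.8, 10.3 and 8.16 in wild type and 196, 175 and 182 in double deficient arrays (log2 change 3.68, SE 0.17, adjusted p = 1.1e-08). Its relative Zic5, which ES cells express, went the other way, from 610.0, 247 and 289.7 to 86, 60.05 and 78.7 (log2 change -2.18, adjusted p = 0.00028). Neurod1, a proneural factor, read 459.8, 469 and 474 against 117, 77.6 and 93.9 (log2 change -2.24, SE 0.19), and Pax6, of eye and neural tube, 196, 116 and 104 against 46.1, 44.1 and 29.4 (log2 change -1.65). Another Pax6 probe set was also called lower, and the 2 further ones were not called. Sox1, an early neural marker, was not called (-0.92, adjusted p = 0.083). Of 21 genes of neuronal structure 3 rose and 5 fell. The median of 0.15 turned to -0.10 under median centring and -0.07 under quantile normalization, and 3 fell when wild type replicate 1 or 3 or the double deficient replicate 1 was left out. The neurofilament gene Nefm rose (2.07, adjusted p = 2.9e-05), and Stmn2, a microtubule regulator of growth cones, fell (-0.97, adjusted p = 0.00012).

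Trophoblast, the outer lineage of the embryo that forms the placenta, was represented by 25 tested genes, of which 20 rose and 0 fell (median 1.48). Cdx2, which specifies trophectoderm, stayed dim, with 3.98, 16 and 2.36 in wild type and 36.9, 32.7 and 42.9 in double deficient arrays (log2 change 1.92, SE 0.34, adjusted p = 0.00097). Its groups did not overlap, though wild type replicate 2 stood above the other wild type arrays. Gata2 and Tfap2a, trophoblast transcription factors, rose by 1.63 and 1.48, and Plac1, a placental gene, by 2.89. The homeobox genes Rhox6 and Rhox9 rose by 3.45 and 2.52. Tead4, Tfap2c and Ascl2 were not called (0.39, 0.45 and 0.19). The summed signal of the 25 genes was 2207 to 3232 in wild type and 9769 to 15740 in double deficient arrays, and replicate 2 was the highest in both. The list includes Krt8, Krt18 and Igf2, bright genes that are described again below among keratins and imprinted genes. They weigh heavily in this sum, which is therefore not particular to trophoblast.

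Keratins of simple epithelia were among the brightest risers. Krt8 read 142, 367 and 131 in wild type and 1869, 2865 and 2084 in double deficient arrays (log2 change 3.52, SE 0.34, adjusted p = 7.7e-06), and its filament partner Krt18 191, 621 and 196 against 2224, 4044 and 2588 (log2 change 3.30, SE 0.46). Replicate 2 was the highest array of each group for both, and the groups did not overlap. Of 24 keratin and epithelial genes 15 rose and 0 fell (median 0.95). That count fell to 9 when wild type replicate 3 or the double deficient replicate 2 was left out. The tight junction genes Cldn6 and Cldn4 rose by 2.14 and 1.22. The epithelial adhesion genes Cdh1 and Epcam, which ES cells express, were not called (0.08 and -0.27).

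Genes of mesenchyme rose together with markers of fibroblasts. Of 17 genes of epithelial to mesenchymal transition 13 rose and 0 fell (median 1.35), and 8 rose without double deficient replicate 3. Tgfbr2, a TGF-beta receptor, read 39.3, 44.9 and 23.6 against 140.3, 152 and 166 (log2 change 1.98, SE 0.25). Snai1, a repressor of Cdh1, rose by 0.86 and Cdh11, a mesenchymal cadherin, by 2.27, whereas Zeb1 was not called (-0.69). Of 25 actin and contractile genes 19 rose and 0 fell (median 1.31). Ccn1, a matricellular protein, read 146, 309 and 211 against 1319, 1520 and 1531 (log2 change 2.75, SE 0.23), and Ankrd1, a nuclear cofactor of muscle, 54.4, 58.5 and 70.2 against 324, 419 and 332. The myosin light chains Myl7 and Myl9 rose by 1.89 and 1.77.

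Among the 26 fibroblast markers 22 rose and 0 fell (median 1.55). Col1a2, a chain of collagen I, read 173, 151 and 176 against 676, 884 and 696 (log2 change 2.13, SE 0.31), and Timp3, a metalloproteinase inhibitor, 47.6, 50.1 and 33.9 against 327, 477 and 389 (log2 change 3.04). The summed fibroblast signal was 2902 to 3879 in Ring1B deficient arrays and 5147, 5703 and 12340 in the 3 Eed deficient arrays. It was high in all 3 double deficient arrays and in 1 of 3 Eed deficient arrays. Whether feeder cells were present is not given in the sources used here, and their part in these results was not tested. Macrophage markers went in the same direction, with 6 of 10 higher and 1 lower (median 1.49), and 7 of 16 higher with no filter (median 0.73). Their sum was 320.7 to 500.4 in wild type, 865 to 1300 in double deficient and 356, 467 and 1391 in Eed deficient arrays. Lyz1 and Lyz2, the lysozymes, read 31.7, 10.1 and 85.8 against 349, 527 and 356 and 31, 21.6 and 86.5 against 212, 322 and 278. The call on Lyz2 was lost without wild type replicate 2. Csf1r, the receptor of macrophage growth factor, rose by 1.57, and Cd68 was not called (-0.80). The macrophage genes Ptprc, Itgam, C1qa and Tyrobp did not pass the filter on low values.

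Secreted signals and their receptors rose more often than they fell. Of 42 tested Wnt pathway genes 16 rose and 0 fell (median 0.47, and 0.22 under median centring). Dkk1, a secreted Wnt inhibitor, read 13.1, 11.1 and 8.58 against 185, 259.5 and 208 (log2 change 3.80, SE 0.23, adjusted p = 1.1e-07). Frzb, another antagonist, rose by 3.14, the ligands Wnt4 and Wnt5a by 2.67 and 1.66, and Wls, which escorts ligands to the surface, by 2.73. Axin2, a target of Wnt signalling, was not called (0.55, adjusted p = 0.095). Of 40 BMP and Nodal pathway genes 20 rose and 3 fell (median 0.63), with 6 lower under median centring. Bmp4 and Bmp6 rose by 1.67 and 1.66, the BMP target Id3 by 1.90 and Fst, which traps activin, by 2.47. The 3 that fell belong to Nodal signalling: Gdf3 (-1.38), Tdgf1 (-0.47) and Lefty1 (-1.75, adjusted p = 0.042). The call on Lefty1 was lost in many alternatives, quantile normalization among them.

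Of 35 FGF and ERK pathway genes 14 rose and 5 fell (median 0.36), with 9 higher and 8 lower under median centring and 3 lower when wild type replicate 1 or the double deficient replicate 2 was left out. Fgf17, a ligand, read 237, 118 and 168 in wild type and 14, 18.1 and 26.6 in double deficient arrays (log2 change -2.85, SE 0.29, adjusted p = 1.2e-05). Fgf4, the main FGF ligand of ES cells, changed by -1.081 (adjusted p = 0.00030), and Fgf15 and Fgf18 changed by -1.21 and -1.53. Dusp4, an ERK phosphatase, and Ier3, an early response gene, rose by 1.93 and 1.97. Of 18 retinoic acid genes 9 rose and 1 fell (median 0.88). Cyp26a1, the enzyme that degrades retinoic acid, read 14, 12.7 and 10.7 against 291, 319 and 299, with the arrays of each group close together (log2 change 4.14, SE 0.16, adjusted p = 2.0e-09). Stra6 and Rbp4, of retinol transport, rose by 2.11 and 2.16, and Aldh1a2, which makes retinoic acid, by 1.74. The receptor Rara fell (-1.04, adjusted p = 0.0089). The window before Cyp26a1, whose promoter is a known target of retinoic acid receptors, lies at chr19:37697558-37697807 on the plus strand and holds 20 CG.
Cyp26a1: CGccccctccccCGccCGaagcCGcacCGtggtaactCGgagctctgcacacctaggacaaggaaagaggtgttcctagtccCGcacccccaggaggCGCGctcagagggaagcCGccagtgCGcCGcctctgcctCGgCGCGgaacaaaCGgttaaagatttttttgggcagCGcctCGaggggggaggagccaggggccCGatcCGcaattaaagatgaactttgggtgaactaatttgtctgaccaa
Among 45 axon guidance genes 19 rose and 1 fell (median 0.59). The neuropilin Nrp1, a receptor of semaphorins and VEGF, read 54, 26.9 and 52.8 against 419, 388 and 584 (log2 change 3.27, SE 0.33). Of 16 blood and endothelial genes 6 rose and 2 fell (median 0.62), with the VEGF receptor Flt1 at 22.9, 32.8 and 22.4 against 171, 213 and 178 (log2 change 2.64).

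Germline genes split. Of 40 genes of germ cells and meiosis 20 rose and 6 fell (median 0.73, and 0.44 without wild type replicate 1). Tex13b, a testis gene on the X chromosome, read 3.88, 9.42 and 9.95 in wild type, at the background, and 433, 359 and 407 in double deficient arrays (log2 change 5.02, SE 0.21, adjusted p = 5.8e-09). Tex15, a meiotic gene, read 26.9, 44.3 and 47.6 against 548, 524 and 225, where double deficient replicate 3 was the lowest of its group yet above all wild type arrays. Sycp1 and Sycp2, of the synaptonemal complex, rose by 2.05 and 2.20, and the piRNA pathway genes Mael, Tdrd7 and Piwil2 by 2.41, 2.62 and 1.54. Other members of the same processes fell: the piRNA pathway genes Piwil4 (-2.10) and Tdrd12 (-1.95), the meiotic axis gene Hormad1 (-1.81), the cohesin Stag3 (-1.005), Tex14 of germ cell bridges (-1.89) and the recombination factor Hsf2bp (-2.05).

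Imprinted genes, expressed from 1 parental copy, also went both ways: of 35 tested, 11 rose and 8 fell (median 0.44). Igf2, a fetal growth factor expressed from the paternal copy, read 57.7, 178 and 74.2 in wild type and 1004, 2343 and 1361 in double deficient arrays (log2 change 3.93, SE 0.40, adjusted p = 1.1e-05). Replicate 2 was the highest of each group. Plagl1, a zinc finger gene, read 95, 89 and 91 against 685, 714 and 665 with little spread (log2 change 2.84, SE 0.18). Mest, a paternally expressed gene, went from 555, 361 and 538 to 30.5, 24.7 and 39.8, the largest fall after Eed itself on this scale (log2 change -3.73, SE 0.22, adjusted p = 1.0e-07). At the Dlk1-Meg3 cluster the maternally expressed noncoding RNAs Meg3 and Rian changed by -2.75 and -2.24 and Mirg by -1.39, while the paternally expressed Dlk1 rose (1.85, adjusted p = 0.0016). Peg3, a paternally expressed zinc finger gene, rose (1.56) and Nnat, a paternally expressed membrane protein gene, fell (-1.97). The Mest window lies at chr6:30733256-30733505 on the plus strand and holds 7 CG. It is shown because this gene had the largest fall outside the targeted genes. Only 1 start per gene was read, so this CG count need not hold for other starts of Mest.
Mest: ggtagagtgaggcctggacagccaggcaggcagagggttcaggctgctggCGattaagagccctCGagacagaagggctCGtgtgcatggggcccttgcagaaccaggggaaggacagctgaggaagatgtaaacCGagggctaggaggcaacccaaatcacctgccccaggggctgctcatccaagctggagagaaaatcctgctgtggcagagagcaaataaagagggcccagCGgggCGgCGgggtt

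Core pluripotency genes were either called lower or not called. In the brightest of the 4 classes by mean level, 23.1% of genes were called lower (median -0.14). The pluripotency lists were not matched for level. Of 21 core pluripotency genes 0 rose, 10 fell and 11 were not called (median -0.57), and 6 fell without double deficient replicate 2. Pou5f1, which encodes Oct4, read 2904, 2396 and 2906 in wild type and 1713, 1423 and 1514 in double deficient arrays (log2 change -0.82, SE 0.11, adjusted p = 0.00013). Nanog read 1555, 2063 and 2174 against 1183, 1024 and 1082 (log2 change -0.80, SE 0.13, adjusted p = 0.00041). Neither gene's groups overlapped, and both remained bright. Sox2 read 2795, 2890 and 2941 against 2074, 1354 and 1932 (-0.71, adjusted p = 0.022). Its call was lost under quantile normalization and when wild type replicate 3 or the double deficient replicate 2 was left out. Zfp42, Dppa2, Dppa5a and Sall4 were not called (-0.11, -0.09, -0.12 and -0.16).

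Of 21 naive pluripotency genes 1 rose, 4 fell and 16 were not called (median -0.31). The count of falls was 3 under quantile normalization, 8 under median centring and 7 without wild type replicate 2. Over all tested genes 11.4% were called lower and 19.5% higher, and 23.1% were lower in the brightest class by mean level. The 4 falls thus do not set this list apart. Klf4 read 684, 295 and 727 against 619, 464 and 590.5 and was not called (0.07, adjusted p = 0.92), a value whose sign turned in some alternatives. Klf2 and Nr0b1 had larger differences that did not pass (-1.32 and -1.32, adjusted p = 0.066 and 0.11), with wild type replicate 2 the lowest wild type array of all 3 genes. Pecam1, an adhesion protein of naive ES cells, fell (-1.41) and Tbx3 rose (2.03). Of 14 markers of the primed epiblast 1 rose and 1 fell (median 0.04, turning to -0.21 under median centring, -0.13 under quantile normalization and between -0.25 and 0.24 with 1 array left out). Fgf5, Otx2 and Pou3f1, which mark that state, were not called (0.02, 0.05 and -0.37).

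In the lists of cell cycle, glycolysis and ribosome biogenesis genes more members fell than rose. These lists were not matched for level either. The brightest class by mean level had 23.1% lower, 11.8% higher and a median of -0.14. Of 52 cell cycle and replication genes 26 fell and 2 rose (median -0.40). The count of falls was 17 without double deficient replicate 2 and 40 under median centring. Cdt1, which loads the replicative helicase, read 2484, 1970 and 2394 in wild type and 1210, 1086 and 1116 in double deficient arrays (log2 change -0.996, SE 0.14, adjusted p = 0.00012). E2f1, a transcription factor of S phase, read 122, 135 and 168 against 70.8, 68.3 and 64.1 (log2 change -1.002, SE 0.21). Mcm2 and Mcm3, subunits of the helicase, changed by -0.69 and -0.75, and Mki67 was not called (-0.09). Both groups of arrays were separated for Cdt1 and E2f1. The 2 that rose were cyclins: Ccnd2, with 314, 105.3 and 188 against 764, 1106 and 837 (log2 change 2.24), and Ccne2 (0.63).

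**Figure D4:**
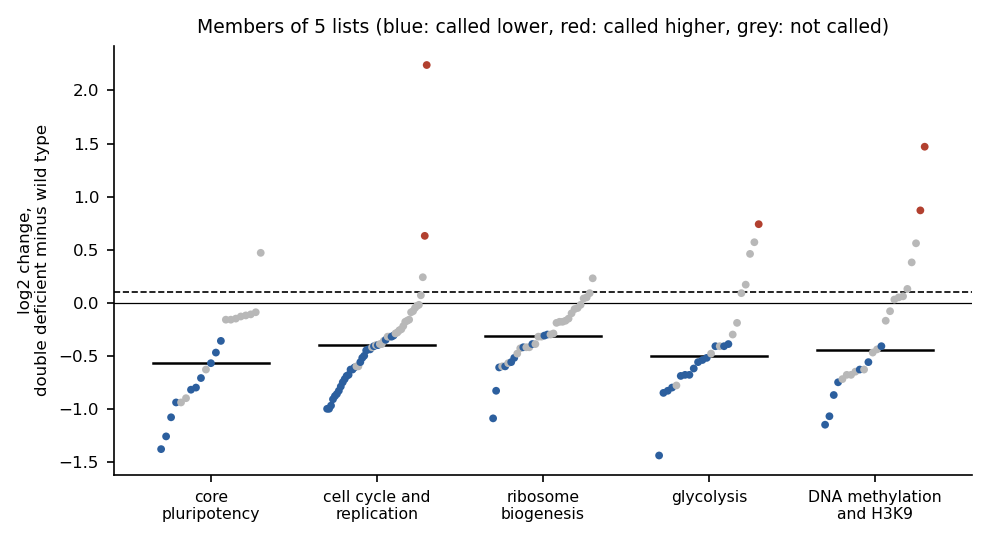
Log2 change, double deficient minus wild type (vertical axis), of each tested gene in 5 lists, ordered within a list; blue points were called lower, red higher and grey not called, the short black lines are list medians (-0.57, -0.40, -0.31, -0.50 and -0.45 from left to right) and the dashed line is the median of all tested genes (0.105). Most points lie below 0, and few lie below -1.

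Glycolysis and hypoxia genes had 14 of 24 lower and 1 higher (median -0.50), with 7 lower without double deficient replicate 3. Aldoc, an aldolase, read 279, 525 and 588 against 136, 223 and 133 (log2 change -1.44, SE 0.34, adjusted p = 0.0059). Slc2a1, the glucose transporter Glut1, read 3781, 2733 and 3755 against 1826, 2115 and 1914 (log2 change -0.80), a call lost under quantile normalization. Of 34 ribosome biogenesis genes 10 fell and 0 rose (median -0.31), against 6 under quantile normalization and 17 under median centring. Without wild type replicate 1 the median was -0.14, with 8 lower. Dkc1, a pseudouridine synthase of small nucleolar particles, read 1768, 1589 and 1720 against 945, 620.4 and 851 (log2 change -1.09, SE 0.17). Myc, a driver of ribosome synthesis, was not called (0.23). Among reference genes 2 of 11 were called lower (Hprt, -0.71, and Pgk1, -0.41) and 1 higher (B2m, 1.78), with 7 lower under median centring. Over all tested genes 11.4% were called lower and 19.5% higher. The call on Pgk1 was lost in several alternatives, while Actb and Gusb were not called (-0.04 and 0.02).

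Genes of DNA methylation and H3K9 methylation, the other main silencing systems, had 7 of 24 lower and 2 higher (median -0.45), with 4 lower without double deficient replicate 2 and 11 under median centring. Suv39h2, an H3K9 methyltransferase, read 159.7, 166 and 165 in wild type and 81.5, 64.2 and 68.7 in double deficient arrays, with tight groups (log2 change -1.15, SE 0.13, adjusted p = 3.5e-05). Cbx5, which encodes HP1 alpha and binds that mark, read 1004, 1012 and 1072 against 483, 527 and 458 (log2 change -1.07), although its 2 dimmer probe sets were not called. Dnmt1 and Uhrf1, which maintain DNA methylation, changed by -0.63 and -0.56, while the de novo enzymes Dnmt3a and Dnmt3b were not called (-0.44 and 0.38). Mbd2, a methyl-CG binding protein, rose (1.47, adjusted p = 3.6e-05). This list was not matched for level, and 23.1% of genes in the brightest class by mean level were lower.

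Genes of the Polycomb complexes were called in both directions. Over all tested genes 30.8% were called, 19.5% higher and 11.4% lower. Of 20 PRC1 genes 6 rose and 3 fell, Rnf2 among the latter, and 5 fell without wild type replicate 2 and under quantile normalization and 7 under median centring. Their median of 0.01 turned to -0.24 under median centring and -0.01 under quantile normalization. Bmi1, the Pcgf4 subunit, read 87.5, 71.2 and 97.5 in wild type and 388, 334 and 345 in double deficient arrays (log2 change 2.00, SE 0.14, adjusted p = 4.1e-07). Pcgf5, Cbx8 and Phc2 rose by 1.43, 1.30 and 1.06. Phc1, a subunit typical of ES cells, went from 1924, 1120 and 1653 to 583, 336 and 526 (log2 change -1.69, SE 0.30), and Cbx7, the main Cbx reader of ES cells, changed by -0.94 (adjusted p = 0.0045). Cbx2, a relative of Cbx8, was not called (0.41). Ring1, the alternative Ring ligase of PRC1, read 54.7, 33.4 and 37 against 48.4, 48 and 46.7 and was not called (0.20, adjusted p = 0.44). Its small difference turned in sign under quantile normalization and median centring. Of 13 genes in the PRC2 list 1 rose and 3 fell, the targeted Eed among the latter. The methyltransferase Ezh2 fell from 1412, 1087 and 1514 to 824, 894 and 899 (log2 change -0.60, SE 0.13, adjusted p = 0.0036) and Rbbp4, a histone chaperone shared with other complexes, changed by -0.52. The listed gene that rose, Eloa (0.50), encodes the elongation factor Elongin A, which is not a PRC2 subunit. Its call was lost under quantile normalization and median centring. Suz12, a core subunit, was not called (-0.22).

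Inhibitors of cyclin-dependent kinases restrain the cell cycle, and the Cdkn2a locus is a classical Polycomb target. Of 8 tested 5 rose and 0 fell (median 0.70), with 3 called without wild type replicate 3, without double deficient replicate 1 or without double deficient replicate 2. Cdkn2b, or p15, read 53, 75.9 and 80.3 in wild type and 341, 332 and 346 in double deficient arrays (log2 change 2.23, SE 0.35, adjusted p = 0.00040). Cdkn2a, the locus of p16 and p19Arf, read 12.5, 10.7 and 24.9 against 66.2, 70.3 and 69.1 (log2 change 1.87, SE 0.24). The double deficient arrays of each gene were within a narrow band, above every wild type array. The fibroblast markers described above rose as well, and their part in these results was not tested. Cdkn1a, or p21, changed by 0.77 (adjusted p = 0.042), a call that most alternatives removed. Of 19 p53 targets 2 rose and 4 fell, Ddit4 by the most (1363, 1596 and 1915 against 511, 672 and 485, log2 change -1.54). The median of the p53 targets, -0.11, turned to 0.02 under quantile normalization. Over all tested genes 19.5% were called higher and 11.4% lower, and 23.1% were lower in the brightest class by mean level. The counts of p53 targets thus do not set that list apart.

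Surface and secretory genes rose in part. H2-Aa, a chain of MHC class II, read 5.03, 10.2 and 7.07 in wild type, at the background, and 71.4, 120.0 and 95 in double deficient arrays (log2 change 3.01, SE 0.25). The class I genes H2-D1 and H2-K1 and their partner B2m rose by 1.63, 1.52 and 1.78. Of 14 tested genes of antigen presentation 6 rose and 1 fell (median 0.58). Lysosomal genes had 15 of 33 higher and 0 lower (median 0.46, 9 higher under median centring), and without double deficient replicate 2 the count was 10. The macrophage markers described above moved with both lists, 6 of 10 higher and their sum from 320.7 to 500.4 in wild type and from 865 to 1300 in double deficient arrays, and their part in these results was not tested. Ctsh, a cathepsin, read 16.9, 28.6 and 26.6 against 387, 459.8 and 375 (log2 change 3.85, SE 0.37). Secretory pathway genes had 14 of 26 higher and 2 lower (median 0.43), of which 4 were called higher under median centring. The members that fell were the stress response factors Ddit3 (-1.33) and Atf4 (-0.89), the latter call lost when wild type replicate 1 or the double deficient replicate 2 was left out. Cholesterol synthesis genes had 11 of 20 higher and 0 lower (median 0.42). That count was 3 under median centring, 4 without double deficient replicate 1, and 5 when wild type replicate 1 or the double deficient replicate 3 was left out. The median fell to 0.17 under median centring. Of 7 genes of the 2-cell stage 2 rose (Usp17la, 1.45, and Pramel7, 1.35) and 0 fell. Their median was 0.20, which turned to -0.05 under median centring. Over all tested genes 19.5% were called higher, so 2 of 7 does not set this list apart.

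Direct tests against the single mutants showed where the double deficient level stood apart. Against Eed deficient cells, 265 genes (1.89%) were called. Of the 2723 genes higher than in wild type, 131 were also higher than in Eed deficient cells and 0 lower, and of the 1588 lower than in wild type, 77 were also lower than in Eed deficient cells and 0 higher. Against Ring1B deficient cells 2617 genes (18.7%) were called, with 1346 of the higher genes above and 5 below, and 600 of the lower genes below and 7 above. All 3 comparisons share the double deficient arrays, so these counts are not independent of one another.

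**Figure D5:**
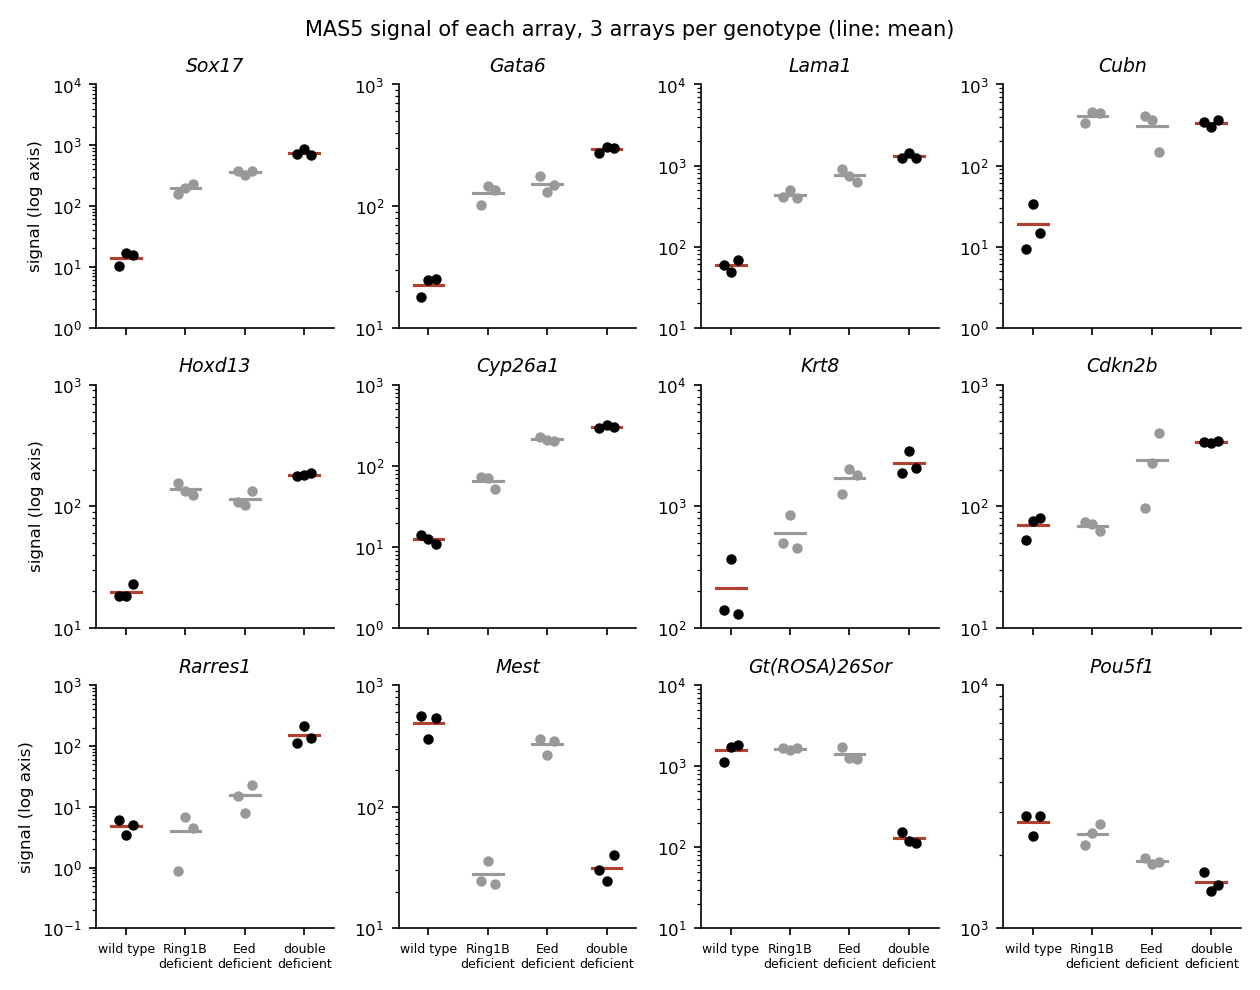
MAS5 signal of each array (vertical log axis) for 12 genes in the 4 genotypes, with 3 points and a line at the mean per genotype; wild type and double deficient arrays are black and the single mutants grey. Sox17, Gata6 and Lama1 are highest in double deficient cells, Gt(ROSA)26Sor is lowest in double deficient cells, and Mest is low in Ring1B deficient cells too.

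For some genes the double deficient level exceeded both single mutants. Sox17 averaged 358 ± 32.6 in Eed deficient and 194 ± 33.2 in Ring1B deficient against 758 ± 87.4 in double deficient cells (SD, n = 3). The double deficient level was higher by 1.07 and 1.94 on the log2 scale (adjusted p = 0.0095 and 2.7e-05). Of 16 endoderm regulators 4 were called above Eed deficient and 8 above Ring1B deficient cells. Rarres1, a retinoid responsive gene, read 15.4 ± 7.59 in Eed deficient, 4.05 ± 2.99 in Ring1B deficient and 152 ± 51.9 in double deficient cells (log2 differences 2.96 and 4.12, adjusted p = 0.00091 and 1.6e-05). Nefm averaged 16.3 ± 3.46 in wild type, 18.1 ± 5.56 in Eed deficient and 19.4 ± 4.32 in Ring1B deficient cells against 85 ± 18.4 in double deficient cells (adjusted p = 0.0011 and 0.00027 against the single mutants). H2-Aa was 2.13 above Eed deficient and 2.34 above Ring1B deficient cells (adjusted p = 0.0011 and 9.0e-05). Among germline genes 10 of 40 were above and 4 below Eed deficient cells. Of these, Slc25a31, an ADP/ATP carrier of sperm, was 1.78 higher (adjusted p = 0.024), and Sycp1 2.03 higher (adjusted p = 0.0033).

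Other genes were not called against 1 or both single mutants, which does not show that the levels are alike. Hoxc4 stood at 67.1 ± 1.66 in Eed deficient and 68.3 ± 4.26 in Ring1B deficient cells, and the double deficient level differed from them by 0.25 and 0.23, neither called (adjusted p = 0.47 and 0.37). Of the 26 Hox genes 1 was called above Eed deficient cells, Hoxd13 at 0.65 (adjusted p = 0.049), and 6 above Ring1B deficient cells. Cubn, at 306 ± 140.5 and 413 ± 69.97 in the Eed and Ring1B deficient cells, was called in neither test. Cdkn2b varied widely in the Eed deficient arrays, at 96.85, 226.5 and 404.2 (242.5 ± 154.3). Their fibroblast sums ran in the same order (5147, 5703 and 12340), and the part of fibroblasts was not tested. Cdkn2b stayed at 69.3 ± 6.30 in Ring1B deficient cells. The double deficient level was 2.22 above Ring1B deficient cells (adjusted p = 0.0012) and 0.70 over Eed deficient cells (adjusted p = 0.33). For Mest the single mutants stood the other way round: 326 ± 49.6 in Eed deficient and 27.8 ± 7.02 in Ring1B deficient cells, with the double deficient level -3.18 from the former (adjusted p = 7.7e-06) and 0.16 from the latter (adjusted p = 0.64).

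Gt(ROSA)26Sor, the noncoding transcript of the Rosa26 locus, which is widely used for transgene insertion, read 1145, 1731 and 1825 in wild type and 156, 118 and 112 in double deficient arrays (log2 change -3.54, SE 0.18). It averaged 1408 ± 259.6 in Eed deficient and 1644 ± 30.8 in Ring1B deficient cells, and the double deficient level lay below both (log2 differences -3.40 and -3.64, adjusted p = 6.8e-07 and 2.8e-07). Pla2g1b, a secreted phospholipase, also stood below both single mutants, with 348, 218 and 325 against 65.8, 44 and 62.7 and log2 differences of -2.30 and -1.97 from the single mutants. Nanog was below both as well (-0.66 and -0.72, adjusted p = 0.021 and 0.0023), whereas Pou5f1 was below Ring1B deficient cells (-0.66, adjusted p = 0.0017) and not called against Eed deficient cells (-0.29, adjusted p = 0.20).

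Probe sets of the same gene were seldom called in opposite directions, but often only some were called. Fitted by probe set, 4189 of 25251 (16.6%) were called higher and 2404 (9.52%) lower. Of 6494 genes with at least 2 probe sets that passed the filter, 2710 had at least 1 called. All were called the same way in 762 genes, some were called and the rest not in 1926, and calls went in both directions in 22. Bmpr2, a BMP receptor counted above among the BMP and Nodal genes, is 1 of those 22. Levels and changes of such genes depend on the probe set read.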

How the data were processed

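A commercial provider hybridised total RNA of 12 ES cell cultures, 3 per genotype, to Affymetrix mouse expression arrays, per the labels. The deposited values are probe set intensity values on a linear scale, and the submitters' processing notes name MAS5 as the tool behind them. Its version and settings were not found in the sources used here. The number of arrays limits the precision.

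Of 45101 probe sets, 64 were controls, 34945 carried 1 gene symbol in the platform annotation, 932 several and 9160 none, and only those with 1 named a gene. Of these 34741 matched RefSeq (GRCm38.p6) by Entrez identifier, which changed 0 symbols. Probe sets had to exceed the 40th percentile of the array on at least 3 of the 12, and the brightest such probe set stood for its gene. Arrays of 1 genotype can meet this rule alone, so genes silent in wild type entered the test when mutant arrays were high. Signals were turned into log2 after adding 5, so fold changes of dim genes are understated. All 12 arrays entered a limma 3.58.1 fit in R 4.3.3, with a mean for each genotype and eBayes with an intensity trend. Adjusted p values are Benjamini-Hochberg values over 13985 genes, called under 0.05, and the procedure was tested on simulated data. Lists are described by counts and medians, with no set test.

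Genes were named by rule: Rnf2 and Eed, the 15 largest changes in each direction among called genes with separated arrays and a higher mean above the median level, up to 4 members of each list, and a set of regulators (Pou5f1, Nanog, Sox2, Klf4, Esrrb, Gata4, Gata6, Sox17, Cdx2, Hand1, Ezh2, Suz12, Ring1, Bmi1 and Cdkn2a). Separation of the arrays was a condition for naming the largest changes, so it is no further support for them. Other genes were chosen after their values were seen. The comparison, its lists and its tests were chosen with earlier results of these data known. The alternatives were other normalizations, added values, filters, sets of arrays, a replicate block, no trend, the mean of probe sets and leaving out arrays. Promoter windows are the 250 bases before a start in RefSeq.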

Additional observations from a re-analysis of the deposited data

How the results depend on the processing

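The number of genes called higher ran from 2008 to 2626 and the number called lower from 1013 to 1371 when 1 array of either genotype was left out, and they were 2496 and 1434 without replicate 2 of all 4 genotypes. Median centring gave 1691 higher and 3141 lower. Adding the replicate number as a replicate block gave 3492 higher and 2410 lower. The deviations of same-numbered wild type and double deficient arrays correlated at 0.245, 0.265 and -0.048, so the numbers do not pair the samples in every case. Arrays numbered 2 did share a pattern. On the second axis of a principal component analysis (16.9% of the variance), replicate 2 was the lowest array of every genotype. Its values were -9.77 (wild type), -39.6 (Ring1B mutant), -34.3 (Eed mutant) and -2.89 (double mutant). The reported fit has no term for this pattern, and its cause was not tested. Under the other alternatives both counts stayed within 1.5 times the reported ones. Of 176 named genes that were called, 153 kept their call in every setting. Over named genes and settings, 3066 values kept their direction and side of the threshold, 93 lost the call, 31 gained it and 8 changed sign, none of which was called in the reported fit. These were Klf4 under median centring (-0.18), the mean of probe sets (-0.0104), without replicate 2 of all genotypes (-0.221), without wild type replicate 2 (-0.35) and without double deficient replicate 1 (-0.0115), Suz12 under the mean of probe sets (0.0355), and Ring1 under quantile normalization (-0.0037) and median centring (-0.0497). With the other arrays left out Klf4 stayed above 0, up to 0.297. The causes were not tested. Signal over background limits dim genes: under a stricter filter 10704 genes were tested, with 2178 higher and 1573 lower.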

Other observations

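A few further genes, chosen after their values were seen, stood apart from the groups described above. Eif2s3y, a Y-linked translation factor, read 129.9, 268 and 251 in wild type and 45.8, 78.1 and 67.5 in double deficient arrays (log2 change -1.65, adjusted p = 0.00094). Uba1y, a Y-linked ubiquitin activating enzyme, read 73.1, 62.8 and 85.2 against 11, 7.73 and 14.6 (log2 change -2.30, adjusted p = 2.1e-05), and Uty, a Y-linked relative of a histone demethylase, 44.5, 53.8 and 79.2 against 14.8, 18.4 and 14.8 (log2 change -1.58, adjusted p = 0.0011). In the single mutants Uba1y averaged 56.8 ± 21.3 (Eed deficient) and 34 ± 6.65 (Ring1B deficient), and Eif2s3y 333 ± 105.0 and 119 ± 20.8 (SD, n = 3). All 3 genes lie on 1 chromosome, and whether it was present in every cell of each line was not tested.

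Aire, a regulator of gene expression in the thymus that ES cells also transcribe, read 142, 83.7 and 211 against 33.6, 23.6 and 20.1 (log2 change -2.22, adjusted p = 0.00037) and was -1.96 from Eed deficient cells (adjusted p = 0.013). Arg2, the mitochondrial arginase, read 21.5, 10.3 and 24.5 against 69.7, 108 and 123 (log2 change 2.16) and averaged 19.4 ± 3.54 in Eed deficient cells. Mep1b, a metalloprotease of gut and kidney, read 15.8, 18.5 and 12.1 against 91.5, 40.3 and 79.3 (log2 change 1.82) and averaged 14.7 ± 14.7 in Eed deficient cells. In each of these 3 genes the wild type and double deficient arrays did not overlap.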
